A study of Mus musculus with 15 samples.

Results

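The cytosolic ribosomal protein genes encode the protein part of the ribosome that translates nuclear mRNA. They were taken from the arrays by gene name: every probe for a transcript whose name begins with Rpl or Rps and a digit, together with Rplp0, Rplp1, Rplp2 and Rpsa, leaving out the Rps6k kinases. The rule found 199 of 55681 probes, carrying 92 of 35715 gene names. Of these, 42 genes belong to the large subunit, 31 genes (67 probes) to the small subunit and 3 genes (6 probes) to the stalk, while 9 (8 genes) report second copies of ribosomal protein genes, 8 (6 genes) named pseudogenes and 2 (2 genes) a retrogene and a binding protein, Rpl37rt and Rps19bp1, which the naming rule also takes.

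A ribosome consists of a small subunit, which reads the mRNA, and a large subunit, which joins the amino acids. Rplp0, Rplp1 and Rplp2 form the stalk of the large subunit that recruits the elongation factors. The mRNAs of ribosomal proteins are among the most abundant of any cell, share a pyrimidine-rich start through which mTOR signalling adjusts their translation, and have left many processed pseudogenes in the genome. Several ribosomal proteins that are not built into ribosomes bind Mdm2, the ubiquitin ligase of p53, and Rps27l, a copy of Rps27, is itself a known p53 target gene.

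Tumors came from mice on a C57/BL6J background treated with CCl4, a liver toxin, and the labels give 16 weeks of treatment for all of them. The study's text gives male mice for the arrayed HCC and does not describe the arrayed ICC, and the labels used here give neither sex nor age. p53f/f mice carry loxP-flanked Trp53 alleles and served as controls; p53LKO mice carry a liver-specific deletion of Trp53, and the promoter that drove it is not given in the sources used here. One-colour arrays had been hybridised with RNA from 15 tumors, namely 5 hepatocellular carcinomas (HCC) of p53f/f controls and, from p53LKO animals, 5 HCC and 5 intrahepatic cholangiocarcinomas (ICC). The p53f/f HCC came from 4 mice (3681, 3715, 3716 and 2 tumors of 3717), the p53LKO HCC from mice 3976, 5283, 3731, 3733 and 3975, and the ICC from mice 3731, 3733, 3976, 3977 and 5283, so 4 mice gave both an HCC and an ICC. Values are listed below in this order of mice. RNA was made from whole tumor tissue, in which fewer cells of a type and less RNA per cell cannot be told apart.

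The arrays differed in ways that bear on the ribosomal protein genes. The share of probes well above background was 55.1 to 70.1% in p53f/f HCC, 37.0 to 62.1% in p53LKO HCC and 42.5 to 47.0% in ICC. All p53f/f HCC lay in the upper row of a slide and all ICC in the lower row; p53LKO HCC lay in both, and the 2 in the lower row (mice 3976 and 5283) had the lowest shares of that group. Trp53 itself had a level of -1.01 ± 0.28 (SD, n = 5) in p53f/f HCC against -3.09 ± 0.46 in p53LKO HCC and -3.07 ± 0.70 in ICC, without overlap between the genotypes. In ICC against p53LKO HCC, 8 of 10 hepatocyte genes were lower and 4 of 8 cholangiocyte genes (Krt7, Krt19, Epcam, Spp1) higher. Of all named genes, counted by 1 probe each, 28.9% were lower and 18.8% higher. All levels are log2 signals minus the 75th percentile of the probes of the array, and a difference of 1 is a doubling.

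Each probe is a stretch of 60 bases. The probes of the genes on which the results turn are printed with the mm9 position that the array files give, because 130 of the 199 probes are placed on a chromosome other than the one that holds the named gene, against 66 on the gene's own chromosome and 3 without a position. The first pair reports Rps15, the next lines Rps27 and Rps27l, then Rpl13 (2 of 3 probes).
Rps15, chr8:130085663-130085722: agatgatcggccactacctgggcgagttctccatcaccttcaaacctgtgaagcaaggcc
Rps15, chr6:57967537-57967596: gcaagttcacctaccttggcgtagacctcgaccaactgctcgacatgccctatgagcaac
Rps27, chr11:69387456-69387515: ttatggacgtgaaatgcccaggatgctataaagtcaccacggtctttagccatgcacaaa
Rps27l, no position given: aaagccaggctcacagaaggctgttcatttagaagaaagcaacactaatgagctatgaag
Rpl13, chr7:149943260-149943319: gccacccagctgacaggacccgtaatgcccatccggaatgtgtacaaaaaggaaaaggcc
Rpl13, chr4:52254267-52254326: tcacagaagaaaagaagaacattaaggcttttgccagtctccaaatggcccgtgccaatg
The printed Rps27 and Rps27l probes share no run longer than 9 bases with any other ribosomal protein probe, while the other 3 Rps27 probes share runs of 44 to 52 bases with each other. Probes of one gene can lie close to each other in sequence, as a pair of Rplp0 probes shows, in which capitals mark the 5 bases that differ within the 53 bases where they overlap.
Rplp0, chr10:74815653-74815712: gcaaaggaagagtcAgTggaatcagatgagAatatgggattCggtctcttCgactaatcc
Rplp0, chr13:67912088-67912147: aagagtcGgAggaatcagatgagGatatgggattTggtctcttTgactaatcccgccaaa
Signal from the gene and from transcribed near-identical copies was not told apart by such probes. In all, 26 pairs of ribosomal protein probes shared a run of 20 or more bases, 23 of them within one gene name. Probes placed on the gene's own chromosome and on another had similar median differences, 0.19 and 0.16 in p53LKO HCC against p53f/f HCC, and -0.26 and -0.24 in ICC against p53LKO HCC.

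The ribosomal protein genes gave strong and rather even signals. On all 15 arrays 188 of the 199 probes were well above background, 8 on some and 3 on none, among them Rpl39l and Rpl3l, and no spot was saturated. By mean signal, 172 of the 199 were in the brightest 10% of all probes, although brightness depends on the probe as well as on the transcript. For the tested probes, mean levels over all arrays ran from -4.53 for 1 of 3 Rps27a probes, with 1 Rpl10l probe at -4.16 and 1 of 4 Rpl6 probes at -2.97, to 8.47 for Rps14, with Rpl10 at 8.36 and Rpl37rt at 8.41, and these levels give no order of transcript amounts. Probes of one gene mostly gave similar differences: over the 60 genes with more than 1 tested probe the median range of the differences within a gene was 0.12 in both comparisons.

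The first comparison sets HCC of the 2 genotypes side by side. The study reports that tumors formed later in p53f/f than in p53LKO mice, and the labels give no ages. Genotype and age at tumor collection could therefore not be told apart here. In p53LKO HCC against p53f/f HCC the ribosomal protein genes as a group differed little with the scaling by the 75th percentile, which is used unless another is named. No probe was more than 2-fold higher at an adjusted p under 0.05 and 1 was lower (limma, with Benjamini-Hochberg adjustment, as for every adjusted p given here, over 36086 probes, of which 194 report ribosomal protein genes), where 3.64% of all tested probes were higher and 16% lower. At any fold, 17 of 194 (8.76%) were higher and 5 (2.58%) lower, beside 10.1% and 22.8% of all probes. The median difference was 0.17 against -0.12 over all tested probes and 0.27 over the brightest 10%, and 84.5% of the ribosomal protein probes lay within 0.5 of 0 against 49.5% of all. The groups did not overlap for 13 probes that were higher and 4 that were lower, beside 6.09% and 16.4% of all probes. Counting the 2 tumors of mouse 3717 as 1 sample left 11 higher and 4 lower at any fold (beside 6.99% and 19.0% of all probes), and without the HCC of mouse 3733 the count of higher probes was 7 (beside 7.71%). With only the upper row of the slides, which leaves out the 2 p53LKO HCC with the fewest probes above background, 13 were higher and 4 lower (beside 6.64% and 21.0%). The 5 probes not tested, among them those of Rpl3l and Rpl39l and 1 each of Rpl10l and Rps15a, were well above background on too few arrays.

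The second comparison sets the 2 tumor types of p53LKO mice side by side. In ICC against p53LKO HCC no ribosomal protein probe passed 2-fold in either direction, among 193 tested, where 12.9% of 32670 probes were higher and 13.4% lower. At any fold 15 (7.77%) were higher and 51 (26.4%) lower, beside 18% and 27.2% of all probes, and the median difference was -0.25 against -0.16 over all and -0.48 over the brightest 10%. The groups did not overlap for 12 probes that were higher and 50 that were lower, beside 9.98% and 18.6%. The counts depended on the mice and rows compared. With the mouse as a block, 0 were higher and 2 lower at any fold, beside 11.6% and 15.5% of all probes, while the median difference was -0.22. With the row as a block 2 and 4 were called, beside 10.8% and 15.6%, and among lower-row arrays only (2 HCC and 5 ICC) none, with a median of -0.12, while 8.82% and 12.4% of all probes were still called there. The probes called with the mouse as a block were 1 of Rpl13 (-0.74, adjusted p = 0.0498) and 1 of Rpl7 (-0.74, adjusted p = 0.0447), so every other ribosomal protein call between ICC and p53LKO HCC named below was lost in that fit. Row and tumor type could not be told apart in full, since no ICC lay in an upper row.

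**Figure D1:**
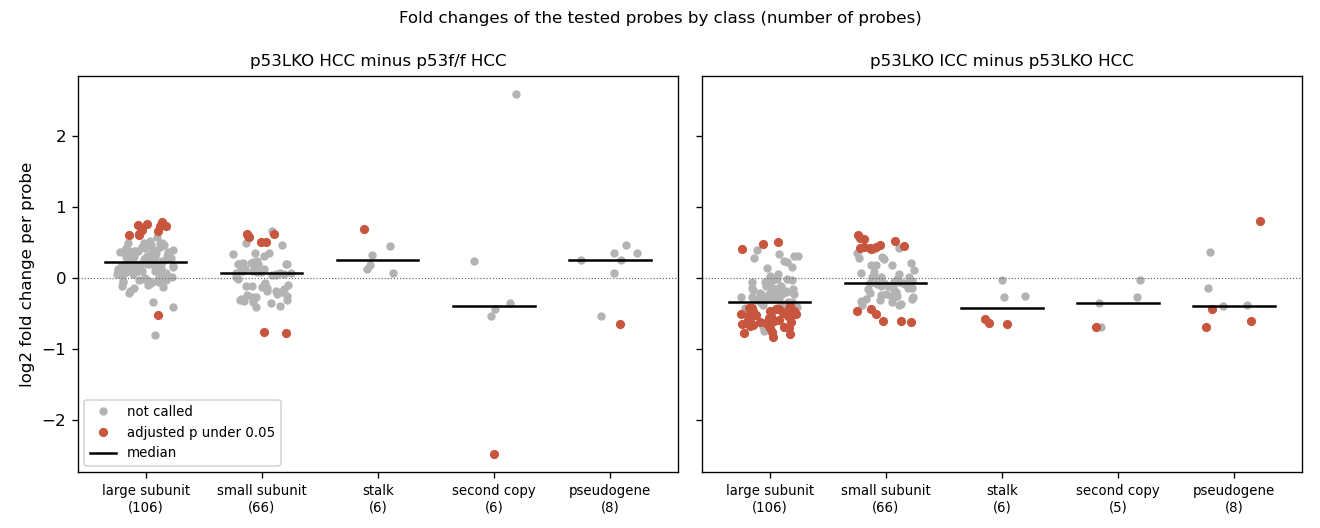
Log2 difference of each tested ribosomal protein probe (vertical axis) by class (number of probes in brackets) for p53LKO HCC minus p53f/f HCC (left) and ICC minus p53LKO HCC (right). Each point is 1 probe, red where the adjusted p was under 0.05, and the line is the class median. Large subunit probes had a median of 0.22 on the left and -0.34 on the right, small subunit probes of 0.07 and -0.07.

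The direction of the group as a whole turned with the way the arrays were put on a common scale. In p53LKO HCC against p53f/f HCC the median difference was 0.17 with the 75th percentile of all probes and 0.12 after quantile normalization. It was -0.08 with the 75th percentile of the probes above background on all arrays, -0.02 with their median, -0.07 with the median of the brightest 10% and -0.08 after cyclic loess. With the E1A spike-in probes it was 0.90, and without any scaling 0.72, and then 159 and 140 probes were higher at any fold and 1 lower. Scaling by the spike-ins moved all probes, whose median difference was then 0.62 (43.6% of all tested probes higher, 8.36% lower), and without scaling it was 0.44 (34.9% higher, 10.9% lower).

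For ICC against p53LKO HCC the same choice turned the direction of the group too. The median difference was -0.25 with the 75th percentile of all probes, -0.24 with the spike-ins and -0.22 without scaling, but -0.05 with the median of the probes above background on all arrays, 0.12 with their 75th percentile, 0.24 with the brightest 10%, 0.18 after quantile normalization and 0.33 after cyclic loess. Between 1 and 76 of the 193 probes were higher and between 0 and 51 lower at any fold, while 15.6 to 34.2% of all tested probes were higher and at most 27.2% lower under the same scalings (22.4% and 21.3% with cyclic loess, which gave the 76). No direction is therefore given here for the ribosomal protein genes as a group in either comparison.

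**Figure D2:**
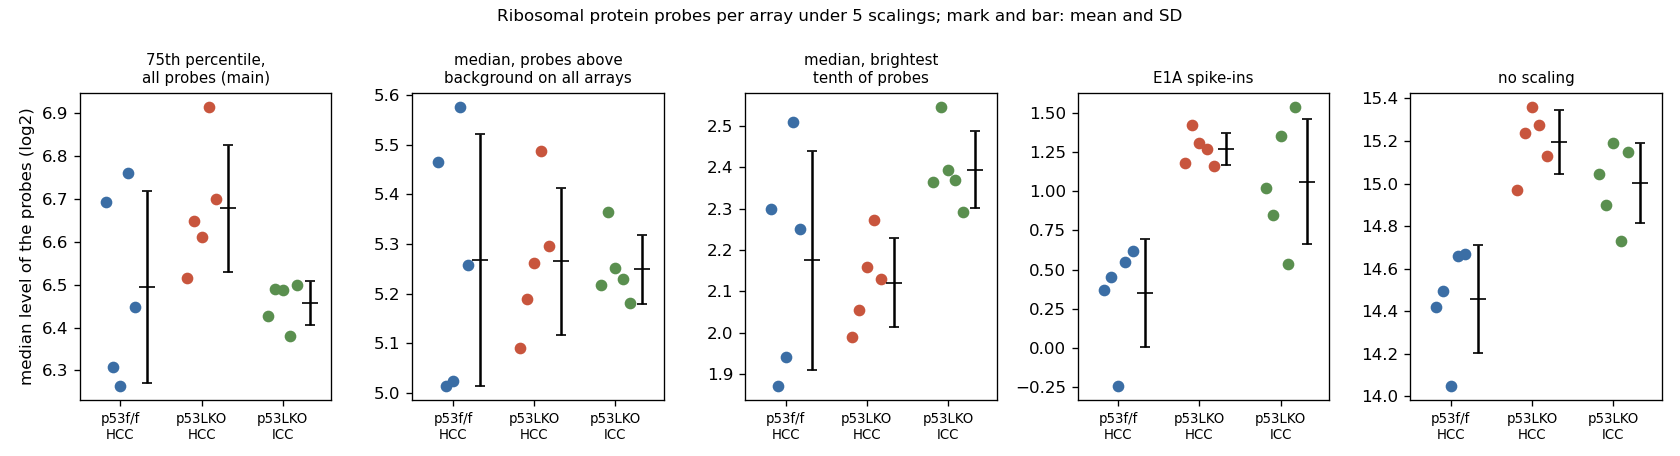
Median level (log2, vertical axes differ) of the 188 ribosomal protein probes above background on all arrays, 1 point per array, in p53f/f HCC, p53LKO HCC and p53LKO ICC under 5 scalings; the mark and bar are mean and SD (n = 5). p53LKO HCC had the higher mean with the 75th percentile (6.68 against 6.49 in p53f/f HCC) and was clear of p53f/f HCC only with the spike-ins (1.27 against 0.35) and without scaling (15.2 against 14.5).

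**Figure D3:**
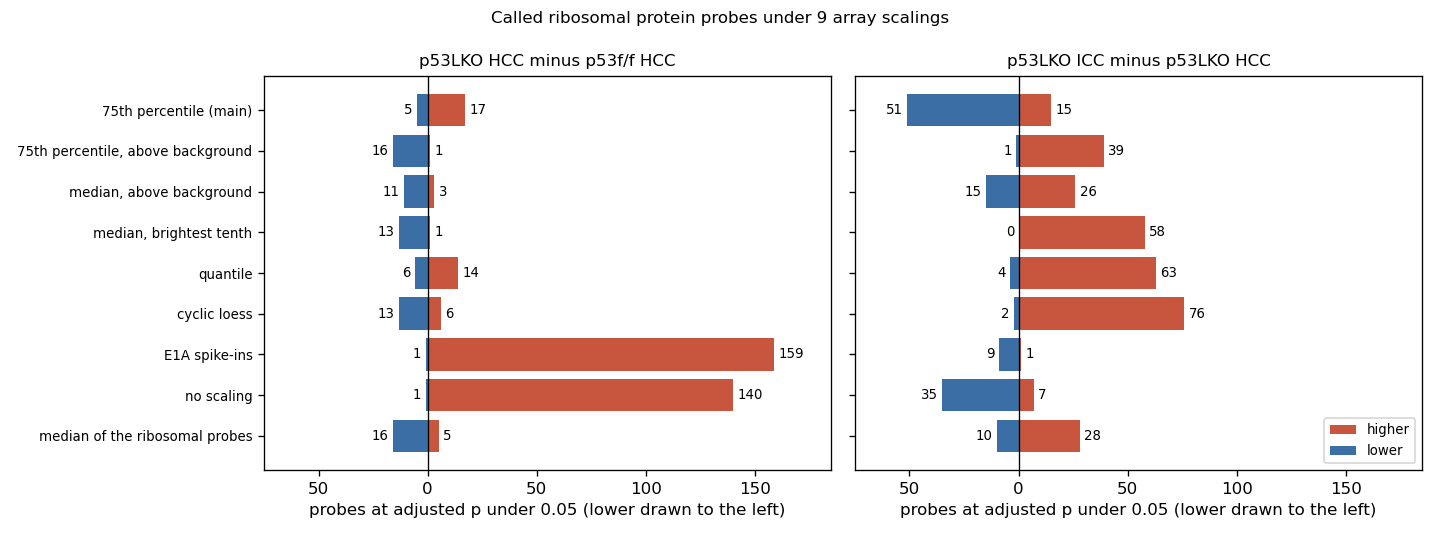
Number of ribosomal protein probes at an adjusted p under 0.05 at any fold (horizontal axis, lower drawn to the left in blue, higher to the right in red) under 9 scalings in both comparisons. In p53LKO HCC against p53f/f HCC the count of higher probes ran from 1 to 159, and in ICC against p53LKO HCC from 1 to 76.

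Differences taken within an array do not depend on a constant used to scale it. The median of the ribosomal protein probes exceeded that of the other probes of the brightest 10% by 2.24 ± 0.26 (SD, n = 5) in p53f/f HCC, 2.18 ± 0.11 in p53LKO HCC and 2.45 ± 0.10 in ICC. The first 2 groups overlapped, and every ICC lay above every p53LKO HCC. The large subunit minus the small subunit gave 0.03 ± 0.15, 0.16 ± 0.14 and 0.01 ± 0.02 (SD, n = 5 each), with p53LKO HCC above every ICC. Set on the median of the ribosomal protein probes themselves, a scaling chosen after the data had been seen, 5 probes were higher and 16 lower in p53LKO HCC than in p53f/f HCC (beside 3.69% and 28.5% of all probes), and 28 were higher and 10 lower in ICC than in p53LKO HCC (beside 23.2% and 17.1%).

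Rps15, a small subunit protein reported to bind Mdm2, stood out from the group. Its first probe had levels of 5.88, 5.62, 6.03, 5.92 and 5.74 in the p53f/f HCC, 4.98, 5.21, 5.17, 5.02 and 5.02 in the p53LKO HCC and 5.72, 5.83, 5.50, 5.68 and 5.49 in ICC. Every p53LKO HCC lay below every other tumor. The difference of p53LKO HCC from p53f/f HCC was -0.76 (SE 0.14, adjusted p = 0.00258) and, for the second probe, -0.77 (SE 0.16, adjusted p = 0.00406). Both probes passed the test in 6 of 8 other scalings, and in every leave-one-out fit, but not with the spike-ins, where the differences were -0.02 and -0.03, nor without scaling, where they were -0.21 and -0.22. In ICC the level was 0.56 higher than in p53LKO HCC (SE 0.14, adjusted p = 0.00821) for the first probe and 0.46 (adjusted p = 0.0488) for the second, and with the mouse as a block the adjusted p was 0.0961 and 0.134. The call of the second probe held in 2 of 10 leave-one-out fits.

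Rpl13, a large subunit protein, had the reverse pattern with all 3 probes. The first probe gave 7.03, 6.84, 6.59, 7.02 and 6.92 in the p53f/f HCC, 7.61, 7.33, 7.09, 7.81 and 7.62 in the p53LKO HCC and 6.84, 6.87, 6.92, 6.96 and 6.63 in ICC, and p53LKO HCC overlapped neither group. The 3 probes were 0.61, 0.76 and 0.67 higher in p53LKO HCC than in p53f/f HCC (adjusted p = 0.0226, 0.0096 and 0.0155) and differed by -0.65, -0.77 and -0.79 in ICC against p53LKO HCC, all called. The second probe was called higher in p53LKO HCC under all 8 other scalings (0.50 to 1.49) and the third under 4 of 8 (0.41 to 1.41, adjusted p of up to 0.0769). In ICC against p53LKO HCC both were called under 4 of 8, with differences of up to -0.19 and -0.24. Both comparisons share the p53LKO HCC arrays, so that a high value there enters each of them.

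The within-array difference of Rpl13 minus Rps15, a pair chosen after their values were seen and so given without a test, was 1.17 ± 0.21 (SD, n = 5) in p53f/f HCC, 2.62 ± 0.39 in p53LKO HCC and 1.37 ± 0.24 in ICC. The lowest p53LKO HCC, at 2.08, lay above the highest p53f/f HCC, at 1.33, and the highest ICC, at 1.75. In this pair the p53LKO HCC stood apart under any constant scaling of the arrays.

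**Figure D4:**
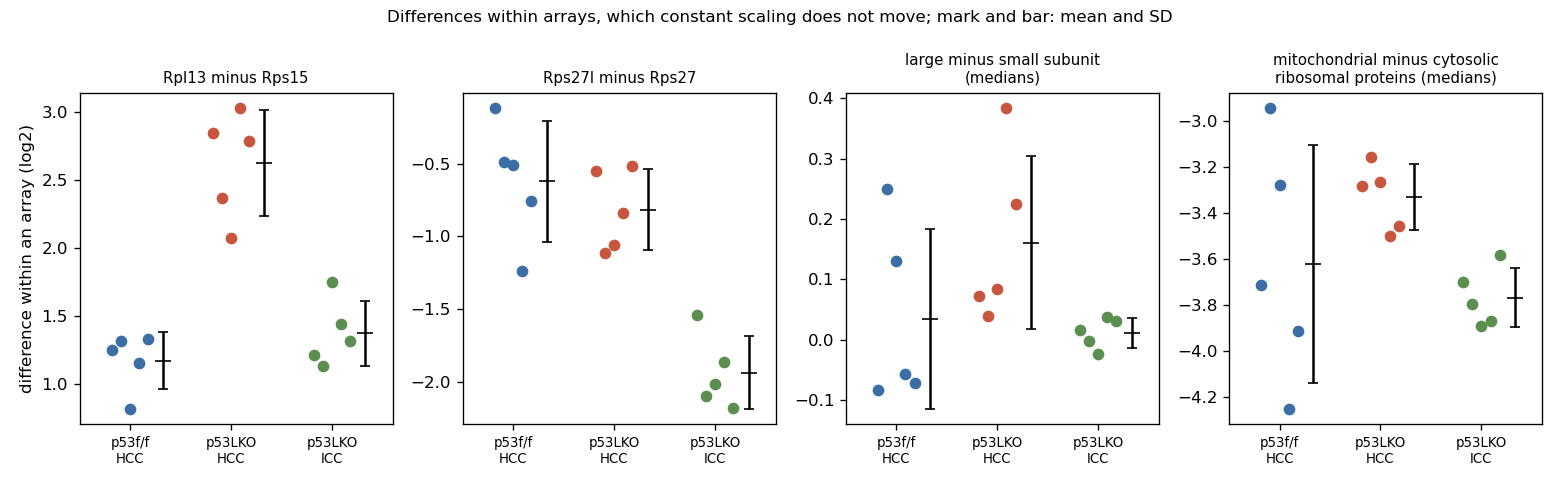
Differences within each array (log2, vertical axes differ), 1 point per array, for Rpl13 minus Rps15, Rps27l minus Rps27, large minus small subunit, and mitochondrial minus cytosolic ribosomal proteins; the mark and bar are mean and SD (n = 5). Rpl13 minus Rps15 set p53LKO HCC (2.62 ± 0.39) apart from both other groups, and Rps27l minus Rps27 was lowest in ICC (-1.94 ± 0.25).

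Rpl7a, a large subunit protein whose introns hold small nucleolar RNAs, differed between the tumor types with every probe. Its 4 probes were -0.67 to -0.77 in ICC against p53LKO HCC, all called, and 0.20 to 0.41 in p53LKO HCC against p53f/f HCC, none called. The one with the largest difference gave 6.35, 5.93, 5.82, 6.14 and 5.95 in the p53f/f HCC, 6.39, 6.18, 6.30, 6.78 and 6.60 in the p53LKO HCC and 5.57, 5.64, 5.82, 5.56 and 5.80 in ICC. No ICC reached a p53LKO HCC, while with the mouse as a block 3 of the probes gave -0.68 to -0.71 with adjusted p of 0.0519 to 0.0602. The same 3 were called in 3 to 5 of 8 other scalings, in which the differences shrank to -0.08, -0.12 and -0.23. Within an array Rpl7a minus the ribosomal protein median differed by -0.49 between ICC and p53LKO HCC (-0.61 ± 0.07 against -0.13 ± 0.13, SD, n = 5 each), without overlap.

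Of 60 genes with more than 1 tested probe, 5 (8.33%) had every probe called in p53LKO HCC against p53f/f HCC, beside 11.9% of all such named genes, with 4 higher (beside 6.24% of all such genes), among them Rpl13, Rps2 and Rps18, and Rps15 lower (beside 4.41%). Between ICC and p53LKO HCC there were 13 (21.7%, beside 30.6%), of which 10 were lower (beside 19.5%; among them Rpl7a, Rpl13, Rpl24, Rpl29, Rpl37a, Rplp0, Rps2, Rps18 and the pseudogene Rpl7a-ps2), 2 higher (beside 8.96%; Rps15 and Rps27) and 1 mixed (Rps3). Over the classes, 10 of 106 large subunit probes were higher and 1 lower in p53LKO HCC against p53f/f HCC (beside 10.1% and 22.8% of all probes), and 3 were higher and 37 lower in ICC against p53LKO HCC (beside 18% and 27.2%). Of 66 small subunit probes, 6 were higher and 2 lower in the first comparison and 11 higher and 6 lower in the second.

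Single large subunit probes added to these. Rpl41, the smallest ribosomal protein, ran with Rps15: its levels were 8.53, 8.03, 8.52, 8.24 and 8.07 in the p53f/f HCC, 7.43, 7.91, 8.00, 7.73 and 7.70 in the p53LKO HCC and 8.25, 8.25, 8.07, 8.12 and 8.14 in ICC. The p53LKO HCC were below all others (difference -0.53, SE 0.18, adjusted p = 0.0403 against p53f/f HCC, and ICC 0.41 higher, adjusted p = 0.0464). This call was lost in 7 of 10 leave-one-out fits, with an adjusted p of up to 0.0903. The largest rises among large subunit probes in p53LKO HCC were 1 of 7 Rpl17 probes (0.78), 1 of 3 Rpl31 probes (0.73) and 1 of 6 Rpl21 probes (0.73), and in each case no other probe of the gene was called there. The call held in 1 of 10 leave-one-out fits for Rpl17, 6 for Rpl21 and 10 for Rpl31, and in 2, 4 and 6 of 8 other scalings.

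**Figure D5:**
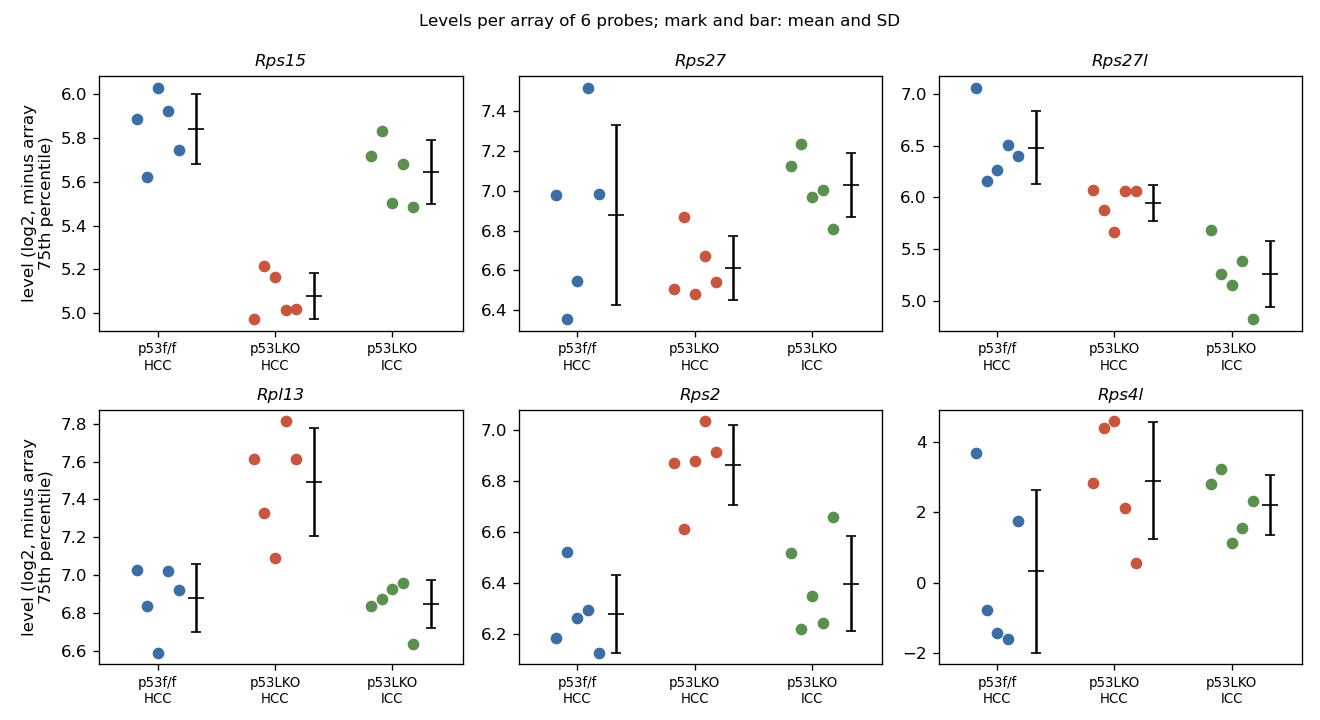
Level per array (log2 minus the 75th percentile of the array; vertical axes differ) of 1 probe each for Rps15, Rps27, Rps27l, Rpl13, Rps2 and Rps4l, 1 point per tumor, with mean and SD (n = 5). Rps15 was lowest and Rpl13 highest in p53LKO HCC, Rps27l had means of 6.48, 5.95 and 5.26 over the 3 groups, and Rps4l spread from -1.62 to 3.71 within p53f/f HCC.

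In the small subunit, Rps2 and Rps18 were higher in p53LKO HCC than in p53f/f HCC. Rps2, near the mRNA entry channel, had levels of 6.19, 6.52, 6.26, 6.30 and 6.13 in the p53f/f HCC against 6.87, 6.61, 6.88, 7.03 and 6.92 in the p53LKO HCC and 6.52, 6.22, 6.35, 6.25 and 6.66 in ICC. The HCC groups did not overlap (0.58, SE 0.15, adjusted p = 0.0124, and 0.51 with an adjusted p of 0.0382 for the second probe). The Rps18 probes gave 0.61 (adjusted p = 0.0198) and 0.51 (adjusted p = 0.0363), and -0.62 and -0.51 in ICC against p53LKO HCC. The first was called between the HCC groups in 2 of 8 other scalings, with differences down to 0.35 and an adjusted p of up to 0.161.

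Among the genes whose probes disagreed in direction or size were Rps3, Rps24, Rpl13a and Rpl6. For Rps3, which also has a role in DNA repair, 2 probes were 0.43 and 0.54 higher in ICC than in p53LKO HCC (adjusted p = 0.0208 and 0.00619) while the third was -0.44 (adjusted p = 0.0309). For Rps24 1 probe was 0.62 higher in p53LKO HCC than in p53f/f HCC and 0.61 higher in ICC than in p53LKO HCC (adjusted p = 0.0482 and 0.032), and the other 3 gave 0.19 to 0.34 and -0.34 to -0.29, none called. Its call between the HCC groups held in 1 of 10 leave-one-out fits and 2 of 8 other scalings, and that between the tumor types in 4 of 10 and 7 of 8. For Rpl13a, 2 probes that share 26 bases were 0.50 and 0.48 higher in ICC (adjusted p = 0.0236 and 0.0416) and the third probe was at 0.05, with levels of 6.80, 6.96, 6.58, 6.72 and 6.87 in the p53LKO HCC and 6.91, 6.99, 6.84, 6.77 and 6.70 in ICC. For Rpl6, with the widest range of any gene between the HCC groups (1.18), 3 probes were called lower in ICC than in p53LKO HCC (-0.62 to -0.53) and gave 0.34 to 0.37 between the HCC groups, while the dim probe named above gave 0.22 and -0.81, neither called. For Rps3, Rps24 and Rpl6 the direction in ICC against p53LKO HCC depends on the probe, for Rpl13a the size and the call.

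Of the stalk genes, only Rplp0 had called probes, and its difference from Rplp1 and Rplp2 was not tested. The Rplp0 probe on the first line of the printed pair had levels of 7.16, 6.92, 7.16, 7.28 and 6.96 in the p53f/f HCC, 7.90, 7.43, 7.63, 8.11 and 7.87 in the p53LKO HCC and 6.84, 7.21, 7.35, 7.04 and 7.23 in ICC. It was 0.69 higher in p53LKO HCC than in p53f/f HCC (adjusted p = 0.0104), the other 2 gave 0.32 (adjusted p = 0.157) and 0.45 (adjusted p = 0.0695), and all 3 were called lower in ICC against p53LKO HCC (-0.65, -0.63 and -0.59). In that comparison each was called in 1 of 8 other scalings, with differences of up to -0.04, 0.02 and 0.0067. Rplp1 (0.12 and 0.18, then -0.27 and -0.25) and Rplp2 (0.07, then -0.03) passed no test. Rpsa, the laminin receptor protein of the small subunit, was called in neither comparison with any of its 4 probes (0.24 to 0.66 and -0.29 to -0.07).

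Second copies are genes that can replace or accompany a ribosomal protein, several of them in restricted tissues. Of 8 such genes on the array, 6 were tested in the HCC comparison and 5 in ICC against p53LKO HCC. Rpl39l and Rpl3l, known from testis and from muscle, were well above background on no array. Rpl22l1 (-0.35, then -0.28), Rpl36al (-0.44, then -0.35) and Rpl7l1 (0.24, then -0.03) passed no test.

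Rps27l had levels of 7.06, 6.15, 6.26, 6.51 and 6.40 in the p53f/f HCC, 6.07, 5.87, 5.67, 6.06 and 6.06 in the p53LKO HCC and 5.69, 5.26, 5.15, 5.38 and 4.82 in ICC. The HCC groups did not overlap, with a difference of -0.53 (SE 0.19) that missed the threshold (adjusted p = 0.057). ICC were lower still, by -0.69 (SE 0.18, adjusted p = 0.0122), with an overlap of 1 tumor in each group, and an adjusted p of 0.0909 with the mouse as a block. The difference to p53f/f HCC passed the threshold in 6 of 8 other scalings (-0.79 at the lowest) and stood at 0.21 with the spike-ins, while the one between the tumor types was called in 2 of 8.

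Its parent gene Rps27 went the other way between the tumor types. The probe printed above gave 6.98, 6.35, 6.55, 7.52 and 6.98 in the p53f/f HCC, 6.50, 6.87, 6.48, 6.67 and 6.54 in the p53LKO HCC and 7.13, 7.24, 6.97, 7.01 and 6.81 in ICC. The 4 Rps27 probes were -0.41 to -0.26 in p53LKO HCC against p53f/f HCC, none called, and 0.41 to 0.51 higher in ICC than in p53LKO HCC, all called, though none with the mouse as a block (adjusted p 0.15 to 0.272). Within an array Rps27l minus the mean of the Rps27 probes was -0.62 ± 0.41 (SD, n = 5) in p53f/f HCC, -0.82 ± 0.28 in p53LKO HCC and -1.94 ± 0.25 in ICC. The HCC groups did not differ beyond their spread (difference -0.19, exact two-sided permutation test, p = 0.413), and the tumor types of p53LKO mice did (-1.12, exact two-sided permutation test, p = 0.00794, the smallest that 5 against 5 can give, and 0.0159 adjusted over these 2 tests), lower in 5 of 5 ICC than in any p53LKO HCC. That test takes the 10 tumors as exchangeable, although 4 mice gave both types. Within these mice, a comparison added after the data had been seen, the ICC minus HCC values were -0.48, -1.26, -1.46 and -1.06, lower in 4 of 4, and an exact two-sided sign-flip test gave p = 0.125, the smallest that 4 pairs allow. These values are for mice 3731, 3733, 3976 and 5283, and both tumors lay in the lower row only for mice 3976 and 5283. Set on the ribosomal protein median of the array instead, Rps27l differed by -0.71 in p53LKO HCC against p53f/f HCC, without overlap. In ICC against p53LKO HCC it differed by -0.47, with overlap. The mean of the Rps27 probes on the same median differed by -0.52, with overlap, and then by 0.66, without overlap. The -0.19 and -1.12 above therefore describe the pair and not Rps27l alone. These differences from the median were not tested.

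The remaining copies varied widely between tumors. For Rpl10l, a testis-enriched copy of Rpl10, 1 probe was the one past 2-fold mentioned above (fitted difference -2.48, adjusted p = 0.0119). It was well above background in 4 of 5 p53f/f HCC, 0 of 5 p53LKO HCC and 2 of 5 ICC. It thus entered the test only through the group in which it was high, so that its call is given as a description, and the value is a bound: at least 1.92-fold lower in p53LKO HCC. The levels, -3.49, -2.90, -4.70, -2.59 and -3.12 in the p53f/f HCC against -5.33, -4.29, -7.39, -4.98 and -7.22 in the p53LKO HCC, overlapped in 1 tumor, and with the filter for probes above background on all arrays this probe was not tested. Rps4l had levels of 3.71, -0.79, -1.44, -1.62 and 1.76 in the p53f/f HCC, 2.83, 4.41, 4.60, 2.14 and 0.56 in the p53LKO HCC and 2.82, 3.23, 1.13, 1.56 and 2.34 in ICC, and a difference of 2.58 (SE 1.10) between the HCC groups missed the threshold (adjusted p = 0.0939). Its SD of 2.33 within p53f/f HCC was the largest of any ribosomal protein probe in any group.

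Of the named pseudogenes, Rps15a-ps6 was called in both comparisons, -0.66 in p53LKO HCC against p53f/f HCC (adjusted p = 0.0161) and 0.80 in ICC against p53LKO HCC (adjusted p = 0.00876). Its levels were low, -1.53, -1.64, -1.77, -1.39 and -2.09 in the p53f/f HCC, -2.25, -2.06, -2.35, -2.57 and -2.47 in the p53LKO HCC and -0.96, -1.48, -1.91, -1.61 and -1.76 in ICC. Rpl7a-ps2 gave -0.60 and -0.69 in ICC against p53LKO HCC, close to the values of Rpl7a.

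Of the 14 tested genes of the list of Mdm2-binding ribosomal proteins, counted by 1 probe each, Rps15 alone was called in p53LKO HCC against p53f/f HCC, where it was lower. Of all named genes, 13.6% were higher and 16.2% lower there. The median difference of the list was -0.09 against 0.05 over all named genes. In ICC against p53LKO HCC, the counted probes of Rps3, Rps15 and Rps27 were higher and those of Rpl5 (-0.44) and Rps27l (-0.69) lower. Of all named genes, 18.8% were higher and 28.9% lower in that comparison. The median of the list was -0.13 against -0.17. For Rps3 another probe was called lower, as given above. The counted probes of Rpl26, Rps7, Rps14, Rps20, Rps25, Rps26, Rps27a, Rpl11 and Rpl23 were not called in either (between -0.31 and 0.20, and between -0.29 and 0.18), but 1 other probe each of Rpl11 (-0.44, adjusted p = 0.0465) and Rpl23 (-0.57, adjusted p = 0.0244) was called lower in ICC. These calls of Rpl11 and Rpl23 and that of Rpl5 held in 0 of 8 other scalings each. They held in 2, 5 and 4 of 10 leave-one-out fits. Mdm2 itself, the product of a p53 target gene, was lower in p53LKO HCC than in p53f/f HCC (difference -0.91, SE 0.18, adjusted p = 0.00298) and 0.67 higher in ICC than in p53LKO HCC (adjusted p = 0.00768).

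Other parts of the protein synthesis machinery were counted in the same way, by 1 probe per gene, at any fold unless stated. Of all named genes, 13.6% were then higher and 16.2% lower in p53LKO HCC against p53f/f HCC, and 18.8% and 28.9% in ICC against p53LKO HCC. Of the cytosolic ribosomal protein genes, 5 of 90 were higher and 4 lower, then 6 of 89 higher and 20 lower. No difference between these lists was tested. The 76 tested mitochondrial ribosomal protein genes, which build the separate ribosome of mitochondria, had 16 higher and 0 lower in p53LKO HCC against p53f/f HCC (median 0.36, Mrpl34 the largest at 1.37), and 0 higher and 47 lower in ICC against p53LKO HCC (median -0.69, 15 of them past 2-fold, as were 15.1% of all named genes). Within an array their median minus that of the cytosolic ones was -3.62 ± 0.52 (SD, n = 5) in p53f/f HCC, -3.33 ± 0.14 in p53LKO HCC and -3.77 ± 0.13 in ICC. Every ICC lay below every p53LKO HCC, while the HCC groups overlapped.

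Of 63 tested ribosome assembly genes, 21 were higher and 3 lower in p53LKO HCC against p53f/f HCC (median 0.43), beside 13.6% and 16.2% of all named genes. Among the higher were Ncl, nucleolin, at 1.16 and Tcof1, a factor of rRNA transcription, at 1.13. Between ICC and p53LKO HCC 4 assembly genes were higher in ICC and 18 lower (median -0.21), beside 18.8% and 28.9% of all named genes. Nob1, which trims the rRNA of the small subunit, stood at -1.25 and Noc3l at 1.37. The same shares of all named genes apply to the lists that follow. Of 18 RNA polymerase I genes 7 were higher and 0 lower, then 0 higher and 5 lower. Of 22 translation factors and other genes with a pyrimidine-rich start, 6 were higher and 0 lower, then 4 higher and 9 lower, with Eef1b2, Eef1d and Eef1g, subunits of the elongation factor that recharges eEF1A, higher in p53LKO HCC (0.66 to 0.70) and lower in ICC (-0.72 to -0.49). Fau, which encodes a ribosomal protein fused to a ubiquitin-like part and is not taken by the naming rule, was not called in the first comparison (0.45, adjusted p = 0.0753).

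Among 15 regulators of ribosome production, Myc (1.26) and Eif4ebp1 (1.09), the translation repressor that mTOR switches off, were more than 2-fold higher in p53LKO HCC than in p53f/f HCC, and at any fold 4 were higher and 2 lower. In ICC 2 were higher and 7 lower than in p53LKO HCC, of which Eif4ebp1 and Cdkn1a, a p53 target that halts the cell cycle (-1.79), were more than 2-fold lower and Mycn (1.91) more than 2-fold higher. Of 15 proliferation genes 3 were higher in p53LKO HCC and 2 lower in ICC. All these counts were made with the 75th percentile scaling, under which the median of all named genes was 0.05 and -0.17. Of all named genes, 13.6% were higher and 16.2% lower between the HCC groups, and 5.15% and 11.3% past 2-fold. Between the tumor types 18.8% were higher and 28.9% lower in ICC, and 13.5% and 15.1% past 2-fold.

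Some of the cell type marker lists differed between the tumor types. The mean level of the 10 hepatocyte genes was 6.77 to 7.23 in p53LKO HCC and 4.17 to 6.37 in ICC, with Alb still at 7.85 in ICC against 9.76, that of 8 cholangiocyte genes -2.46 to -1.14 and 0.56 to 0.84, and that of 8 stellate cell and fibroblast genes 1.51 to 3.43 and 3.25 to 4.21 (5 of 8 higher). Of 6 B and plasma cell genes 4 were more than 2-fold higher in ICC (median 1.44), and 4 of 4 tested erythroid genes more than 2-fold lower (median -1.63). Of 8 T and NK cell genes 2 were higher and 3 lower, of 6 endothelial genes 1 and of 5 tested pancreatic acinar genes 3 were lower, and of 7 macrophage genes none was called. Of all named genes, 18.8% were higher and 28.9% lower in this comparison, and 13.5% and 15.1% past 2-fold. Between the HCC groups 4 of 10 hepatocyte genes were lower in p53LKO HCC (beside 16.2% of all named genes), and of 8 stellate cell genes none was called (median 0.86). The part of these cell types in the ribosomal protein values was not tested.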

How the data were processed

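RNA from whole carcinoma tissue was hybridised to 15 one-colour Agilent arrays. The authors extracted them with Feature Extraction 10.7.3.1, which gave the deposited spot intensity (background-subtracted) and the flags for background and saturation; depth on an array is signal over background. The deposited value table, analysed by the authors in GeneSpring, holds log2 values centred per probe, its scale and centring not stated, and served as an alternative only for the HCC comparison.

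Here the processed intensity was averaged over unflagged spots of a probe, taken as log2 and scaled by the 75th percentile of the array's non-control probes. Testing required a signal well above background on 3 or more arrays of any group compared. The comparisons used limma 3.58.1 in R 4.3.3 with Benjamini-Hochberg adjustment over all probes tested, and a probe was called at an adjusted p under 0.05, with or without a fold over 2, as stated. Genes were named by a rule: those past the threshold (the 10 largest in a direction), second copies, stalk genes, Rpsa, Mdm2 binders, genes whose probes disagree, and the 3 brightest and 3 dimmest tested; its use at any fold, and Rpl7a and Rpl41, were chosen after values were seen. The members and gene lists were chosen with earlier results of these data known.

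The labels' mouse numbers pair an HCC with an ICC in 4 mice; deviations of same-mouse tumors correlated at -0.14 to 0.066 (n = 4 pairs), those of other pairs at -0.26 to 0.28 (n = 21). The 2 tumors of mouse 3717 entered as separate samples. Probe sequences and mm9 positions are those of the deposited scanner files. Alternatives covered scaling, background correction, filters, slide, row and mouse as blocks, leaving out each tumor, and the methods' t-test. Scripts were tested on simulated data. Some genes are not reported here.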

Additional observations from a re-analysis of the deposited data

Results flagged for a closer look

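Among 135 sets of 5 values, each a probe or the median of the ribosomal protein probes in 1 group, 2 held a tumor that stood far from the other 4, where chance gives about 1 in 20. One probe of Rpl23, a large subunit protein, had a level of 7.48 in the ICC of mouse 3731 against 7.31 to 7.33 in the other ICC. One probe of Rplp1 of the stalk had a level of 6.74 in the ICC of mouse 5283 against 6.92 to 6.97 in the others.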

How the results depend on the processing

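All counts are of ribosomal protein probes, higher then lower at any fold unless stated, and the cause of a change was not tested. In p53LKO HCC against p53f/f HCC (17 and 5; past 2-fold 0 and 1) the 75th percentile of probes above background on all arrays gave 1 and 16 (4 lower past 2-fold; median -0.0806), their median 3 and 11 (-0.0205), the brightest 10% 1 and 13 (3 lower past 2-fold; -0.0722), cyclic loess 6 and 13 (2 higher and 3 lower past 2-fold; -0.0753), quantile normalization 2 higher past 2-fold, the spike-ins 159 and 1 (68 higher past 2-fold; 0.90), no scaling 140 and 1 (32 higher past 2-fold; 0.72) and the ribosomal protein median, added after seeing the data, 5 and 16 (-0.0183). Higher at any fold were 30 with normexp, 6 without a filter, 7 with the slide as a block and 5 with 1 probe per gene. The replicate block that averaged the 2 tumors of mouse 3717 gave 11. Past 2-fold, the filter for all arrays gave 0 lower, and the row as a block or the upper row only, also added later for the 2 arrays it leaves out, 1 higher.

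In ICC against p53LKO HCC (15 and 51; past 2-fold 0 and 0) the same order of scalings gave 39 and 1 (1 higher past 2-fold; median 0.12), 26 and 15 (1; -0.0462), 58 and 0 (5; 0.24), 76 and 2 (7; 0.33), 63 and 4 for quantile (3 higher and 2 lower past 2-fold; 0.18), 1 and 9 for the spike-ins, 7 higher without scaling and 28 and 10 for the ribosomal protein median (1; -0.0303). No filter gave 4 and 21 (1 higher past 2-fold), the slide as a block 8 higher, the row as a block 2 and 4, all 15 arrays in 1 model 9 higher, 1 probe per gene 6 and 20, and the lower row only 0 and 0. The mouse as a block, the paired fit of the shared mice, gave 0 and 2.

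Leaving out each tumor, p53LKO HCC against p53f/f HCC gave 7 to 16 higher and 4 to 8 lower (past 2-fold 0 to 1 and 1 to 1; median 0.0999 to 0.225). It was 7 without the HCC of mouse 3733, 8 without that of mouse 3975 or tumor T2 of mouse 3717, and 8 lower without that of mouse 3715. ICC against p53LKO HCC gave 4 to 12 higher and 31 to 51 lower (past 2-fold 0 to 0 in both directions; median -0.275 to -0.191), with 4 higher without the ICC of mouse 3733, 6 without the HCC of mouse 3975, 31 lower without the ICC of mouse 3977 and 32 without the HCC of mouse 3733.

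Named probes that turned sign, called on at least 1 side, were in p53LKO HCC against p53f/f HCC Rpl26 (0.67 and 0.70 with the spike-ins, 0.49 and 0.52 without scaling), Rpl41 (0.21 and 0.0269), and, with the spike-ins, Rps15a-ps6 (0.0802), Rps25 (0.72) and Rps26 (0.61). In ICC against p53LKO HCC, the brightest 10%, quantile normalization and cyclic loess gave Rpl11 0.056, 0.0065 and 0.14, Rpl5 0.0554, 0.0857 and 0.0771, and Rplp2 0.46, 0.43 and 0.60; Rpl26 gave 0.48, 0.46 and 0.43, then 0.49 and 0.49, then 0.55 and 0.49. Cyclic loess gave Rpl23 0.47 and 0.47, Rplp0 0.0209 and 0.0067, and Rps20 0.44, and the brightest 10% the third Rps3 probe 0.0556. Other named probes turned sign with no call in the reported fit or on the turned side, among them Rps27l (up to 0.21) and the Rps27 probes (up to 0.33 to 0.47) between the HCC groups. The authors' value table was not run for ICC. Probes below background limit Rpl10l and Rps27a.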
